A study of Drosophila melanogaster with 6 samples.

Results

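Myc, the transcription factor that drives growth and ribosome production, and 9 genes of nucleolar growth were followed in bulk RNA-seq of adult Drosophila ventral nerve cords (VNCs), with and without neuroblast (NB) tumors. The 10 genes were chosen by name, as the rows of the deposited exon count table carrying exactly the symbols Myc, mbm, Fib, Nop56, nop5, Nop60B, Nopp140, Ns1, Ns2 and Ns3, out of 17494 genes in the table. All 10 had a row and all 10 passed the filter on low counts in every comparison. Tumors were started in larvae with poxn-GAL4, a driver active in a few NB lineages, together with UAS-dicer2 and UAS-mCherry.NLS. There were 2 libraries of pros + Syp knockdown VNCs (UAS-RNAi against both prospero and Syncrip), 2 of pros knockdown VNCs (UAS-RNAi against prospero alone) and 2 of wild type VNCs, which hold no NBs. All flies were about 6 days old by the sample labels, while the study's methods give a later age. The genotype of the wild type is not described further in the sources used here, so the driver, dicer2 and mCherry cannot be told apart from the knockdowns in the comparisons with it. The tumor samples were dissected with the normal tissue on which the tumors grow, from pooled males and females. By the study's methods, libraries of 1 condition are technical replicates, so that p-values measure only the spread between these samples.

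Ribosomes are built in the nucleolus, where RNA polymerase I transcribes the ribosomal RNA (rRNA), small nucleolar ribonucleoproteins (snoRNPs) modify it, and processing factors cut and fold it into the 2 subunits. Myc raises the output of many genes of this pathway, and larval NBs, which regrow between divisions, are known for their large nucleoli. Of the genes described, Fib, Nop56 and nop5 encode the core proteins of the box C/D snoRNPs, which methylate rRNA. Nop60B encodes the fly dyskerin, the enzyme of the H/ACA snoRNPs, which convert uridine to pseudouridine. Nopp140 is a phosphoprotein of the nucleolus and Cajal bodies that associates with both kinds of snoRNP. The gene mbm (mushroom body miniature) encodes a nucleolar protein needed for growth of larval NBs and for small subunit biogenesis. Ns1, Ns2 and Ns3 are nucleostemin-like GTPases of large subunit biogenesis. The group name does not hold for all of them, since the human counterpart of Ns3, LSG1, acts on the large subunit in the cytoplasm.

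The genes lie apart, on 5 chromosome arms, at these positions in Release 6 of the genome as given in the count table. Myc (FBgn0262656) spans bases 3373159 to 3391697 of chromosome X, and Ns3 (FBgn0266284) bases 1461844 to 1464220 of the same chromosome. On 2L lie mbm (FBgn0086912), from 271912 to 273715, and nop5 (FBgn0026196), from 6916753 to 6918743. On 2R lie Fib (FBgn0003062), from 23072909 to 23074725, Nop60B (FBgn0259937), from 24174877 to 24186343, and Ns2 (FBgn0034243), from 17565779 to 17568456. Nopp140 (FBgn0037137) is on 3L, from 21832774 to 21836685. On 3R are Nop56 (FBgn0038964), from 22419095 to 22421068, and Ns1 (FBgn0038473), from 17070523 to 17072675. Fib, nop5 and Nop60B each hold 1 annotated snoRNA gene wholly inside an intron, snoRNA:229, snoRNA:nop5-x16-a and snoRNA:Psi18S-1820, so that some snoRNP protein genes also carry genes of snoRNAs.

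Reads were counted for every gene whose exons they touched, without regard to strand, so that genes with shared exon bases also share reads. For mbm, Fib, Nop56, nop5, Ns1 and Ns3, no exon base was shared with another gene. The share was 0.650% of the exon length for Nopp140, 3.31% for Ns2 and 15.3% for Nop60B, where 6 annotated snoRNAs lie within its exons. For Myc it was 61.2%, with the long non-coding RNA gene CR44999 on the same strand and CG12535 on the opposite strand. Values for Myc are therefore given for all of its counts, and below also with the counts of these 2 genes taken away.

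Library totals ranged from 86098417 to 128107088 counts, of which rRNA genes took 15.6% to 23.8%. Levels are in CPM, that is, counts divided by a library size scaled with edgeR's TMM factors and set to a common total. The knockdown targets were checked as a test of the labels. Syp had 422 and 459 CPM in pros + Syp knockdown VNCs, 2066 and 1762 in pros knockdown VNCs, and 699 and 689 in wild type VNCs. It was lower in pros + Syp than in pros knockdown VNCs (log2 fold change -2.12, SE 0.11, adjusted p = 0.00349 by edgeR's quasi-likelihood test). For pros the levels were 1045 and 1254, 736 and 808, and 2505 and 2335 CPM in the same order of conditions, below wild type in both tumor conditions (log2 fold changes of -1.08 and -1.64, adjusted p = 0.00194 and 2.37e-05). Between the tumors pros was called higher in pros + Syp knockdown VNCs (log2 fold change 0.58, SE 0.11, adjusted p = 0.0274 by edgeR). The tumor conditions thus differed in the RNA of both targets.

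The VNCs with tumors could be told from wild type by their NB markers. The summed level of 6 NB markers (dpn, grh, mira, ase, wor and insc) was 1760 to 1919 CPM in pros + Syp knockdown VNCs and 2267 to 2424 CPM in pros knockdown VNCs, against 11.7 to 12.6 CPM in wild type VNCs. The sum of 12 neuron markers was 2518 to 3207 CPM and 1834 to 2121 CPM in the 2 tumor conditions, against 8687 to 8725 CPM in wild type VNCs, and that of 10 glia markers was 1091 to 1311 and 796 to 854 CPM, against 2765 to 2767 CPM. Muscle markers (12 genes) summed to 1246 to 2028, 289 to 295 and 934 to 1327 CPM in pros + Syp knockdown, pros knockdown and wild type VNCs, and fat body markers (6 genes) to 242 to 332, 990 to 1564 and 5696 to 6606 CPM. The lists were not uniform. Against wild type, 1 glia marker was called higher and 9 lower in pros knockdown VNCs. In pros + Syp knockdown VNCs these numbers were 2 and 8. There 9 muscle markers were called higher and 2 lower, and 1 fat body marker higher and 5 lower. Between the tumors, 5 neuron markers were called higher and 1 lower, and 11 muscle markers higher. Of the fat body markers 5 were called lower and 1, Fbp1, higher, with 5.19 and 20.3 CPM in pros + Syp knockdown VNCs against 0.043 and 0.052 CPM in pros knockdown VNCs. Of the glia markers 3 were called higher and 2 lower, and of the NB markers 1 higher (ase, log2 fold change 0.34) and 2 lower (mira, -0.98, and insc, -0.42). Over all genes tested, 10.9% were called higher and 12.4% lower between the tumors, and the shares against wild type are given below. No marker was at 0 in both libraries of a condition. These sums move with every comparison below, and their part in the results was not tested. In such bulk samples, more cells of a type and more RNA per cell cannot be told apart.

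**Figure D1:**
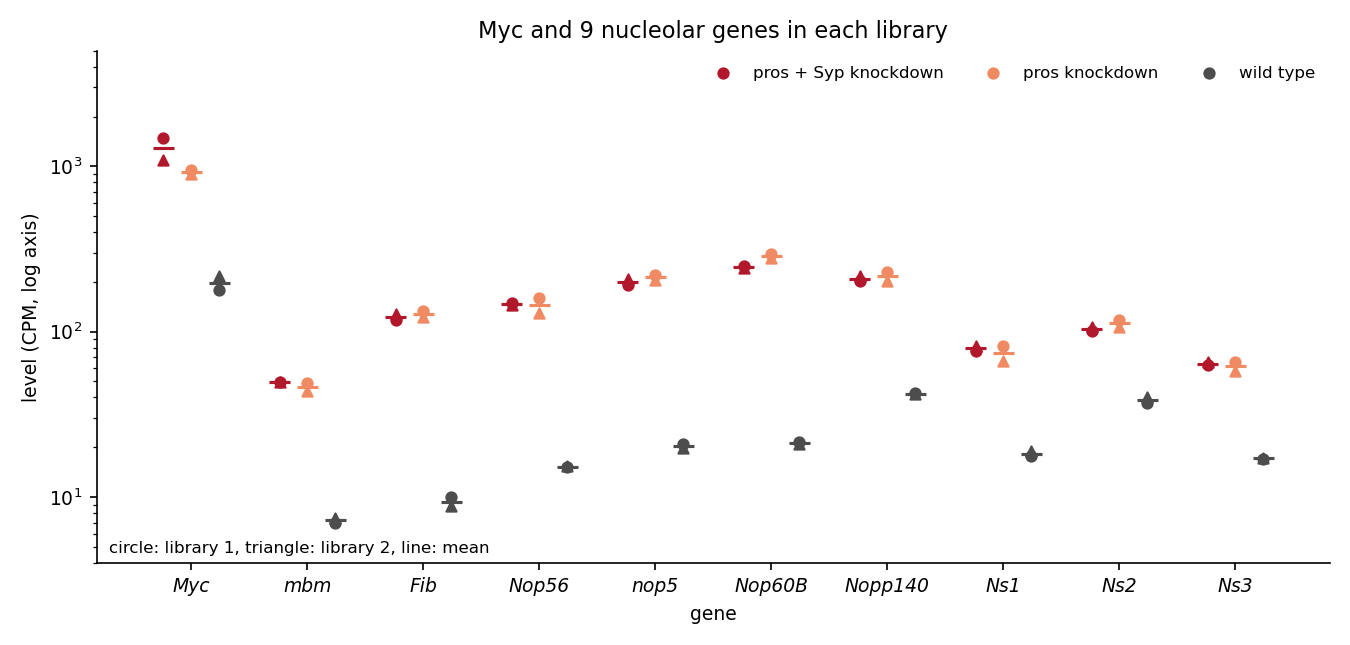
Level of each gene (CPM, log axis) in the 2 libraries of pros + Syp knockdown, pros knockdown and wild type VNCs, from left to right for each gene; circles are library 1, triangles library 2 and lines the mean. For all 10 genes the 4 tumor libraries lie above both wild type libraries, while the 2 tumor conditions lie close together except for Myc.

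The first comparison asks how the genes differ between VNCs with pros knockdown tumors and VNCs without NBs. All 10 genes were higher in the pros knockdown VNCs, between 2.93-fold for Ns2 and 13.7-fold for Fib, and in each case both tumor libraries lay above both wild type libraries. All 10 passed the test (adjusted p between 4.25e-06 and 2.99e-05, the quasi-likelihood test of edgeR, with p-values adjusted by Benjamini and Hochberg's method over 14162 genes). A call was common in this comparison: 82.6% of the genes tested were called at an adjusted p under 0.05, 41.9% as higher and 40.7% as lower, and 46.4% had both tumor libraries above both wild type libraries. The median log2 fold change of the 10 genes was 2.52, against 0.01 over all genes tested.

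The 3 core C/D proteins and Nop60B had the highest fold changes. Fib, the methyltransferase, had 133 and 122 CPM in pros knockdown VNCs, against 9.94 and 8.78 CPM in wild type VNCs (log2 fold change 3.77, SE 0.10). Nop60B, the pseudouridine synthase, had 293 and 279 CPM against 21.6 and 20.8 CPM (3.76, SE 0.07). The fold changes of these 2 enzymes were the highest of the 10 genes. The scaffold proteins of the C/D particle, which hold Fib in place, followed closely. Nop56 had 159.6 and 130.4 CPM in pros knockdown VNCs, against 15.1 and 15.3 CPM in wild type VNCs (3.25, SE 0.12). For nop5, the fly counterpart of Nop58, the levels were 219.7 and 206 CPM against 21.1 and 19.7 CPM (3.39, SE 0.08). The 95% confidence intervals of the 3 C/D genes, from 2.96 to 4.03 at the widest, overlapped each other.

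Nopp140, mbm and Myc formed the middle of the range. Nopp140 had 229 and 202 CPM in pros knockdown VNCs, against 42.7 and 41.9 CPM in wild type VNCs (log2 fold change 2.36, SE 0.08). The level of mbm was 48.7 and 43.5 CPM, against 7.0 and 7.46 CPM (2.67, SE 0.08). In wild type VNCs mbm was thus the gene with the lowest level, from 808 and 986 counts. Myc had 944 and 902 CPM in pros knockdown VNCs, against 179 and 217 CPM in wild type VNCs (2.23, SE 0.11). It carried the most reads of the 10 genes in every library, normal VNCs included.

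The 3 GTPases had the smallest fold changes. Ns1, the nucleostemin of the fly, had 81.8 and 66.4 CPM in pros knockdown VNCs, against 17.7 and 18.9 CPM in wild type VNCs (log2 fold change 2.02, SE 0.12). Ns2 had 118 and 107 CPM against 36.9 and 40.1 CPM (1.55, SE 0.08). Ns3 had 65.8 and 57.7 CPM against 16.9 and 17.3 CPM (1.86, SE 0.09). The interval of Ns2, 1.34 to 1.76, lay below those of the 7 genes that are not GTPases.

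VNCs with pros + Syp knockdown tumors were compared with the same wild type libraries, so that the 2 sets of fold changes share their denominator and are not independent. Here too all 10 genes were higher, from 2.68-fold for Ns2 to 13.1-fold for Fib, with adjusted p between 5.70e-05 and 2.80e-04 (edgeR, 14289 genes tested). Of all genes tested, 76.5% were called, 39.8% as higher and 36.7% as lower, and 46.0% had both tumor libraries above both wild type libraries. The median log2 fold change was 2.73 for the 10 genes and 0.04 over all genes tested.

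Fib had 118 and 128 CPM in pros + Syp knockdown VNCs, against 9.94 and 8.78 CPM in wild type VNCs (log2 fold change 3.71, SE 0.11). Nop60B had 251 and 241 CPM, against 21.6 and 20.8 CPM (3.53, SE 0.07). The 2 enzymes of rRNA modification again had the highest values of the 10 genes. Nop56 had 148 and 145 CPM, against 15.1 and 15.3 CPM (3.26, SE 0.06). The level of nop5 was 191 and 208 CPM, against 21.1 and 19.7 CPM (3.28, SE 0.09). Nopp140 had 202 and 218 CPM, against 42.7 and 41.9 CPM (2.31, SE 0.08). These 3 proteins work within or beside the same particles as the enzymes, and Nopp140 had the smallest fold change of the 3, 4.94-fold.

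For mbm, the levels were 49.7 and 49.6 CPM in pros + Syp knockdown VNCs, against 7.0 and 7.46 CPM in wild type VNCs (log2 fold change 2.77, SE 0.07). Its libraries were almost level, with a gap of 1.00-fold. Ns1 had 76.7 and 81.6 CPM, against 17.7 and 18.9 CPM (2.11, SE 0.08). Ns2 had 100.3 and 107 CPM, against 36.9 and 40.1 CPM (1.42, SE 0.08). Ns3 had 62.5 and 65.5 CPM, against 16.9 and 17.3 CPM (1.90, SE 0.07). Ns2 thus had the smallest fold change in both tumor conditions.

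Myc had 1475 and 1099.6 CPM in pros + Syp knockdown VNCs, against 179 and 217 CPM in wild type VNCs (log2 fold change 2.70, 95% confidence interval 2.20 to 3.19, adjusted p = 2.80e-04 by edgeR). Its interval was the widest of the 10 genes. The pros + Syp knockdown libraries differed 1.34-fold in Myc, a gap larger than that of 93.0% of the 8440 genes compared, where the median gap was 1.07-fold. In wild type VNCs the gap in Myc was 1.21-fold, the largest gap of the 10 genes there, and in pros knockdown VNCs it was 1.05-fold. Myc was thus less even between libraries of a condition than the other members in 2 of the 3 conditions.

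**Figure D2:**
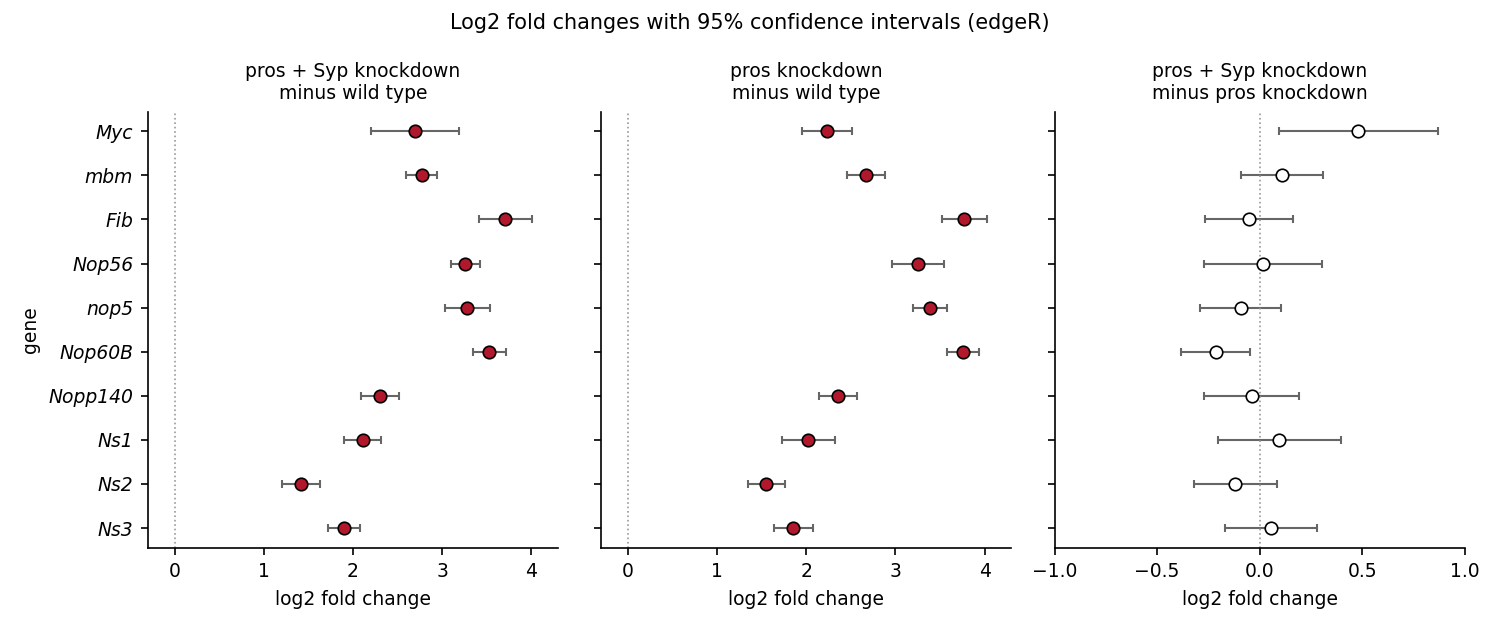
Log2 fold change of each gene with its 95% confidence interval from edgeR, for pros + Syp knockdown minus wild type, pros knockdown minus wild type and pros + Syp knockdown minus pros knockdown VNCs; filled points passed an adjusted p of 0.05, open points did not. All values against wild type are 1.42 or more, and those between the tumor conditions lie between -0.21 and 0.48, on a narrower axis.

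The third comparison asks whether the genes differ between pros knockdown tumors and tumors in which Syp is knocked down as well. Syp is an RNA-binding protein of the later stages of NB patterning. Its RNA was lower in these VNCs but not absent, and pros RNA differed too. None of the 10 genes passed the test: 0 of 10 were called by edgeR at an adjusted p under 0.05, while 23.3% of the 13703 genes tested were (10.9% as higher and 12.4% as lower). At an unadjusted p under 0.05 there were 2 of the 10 genes, Myc and Nop60B, and 5435 of all genes. DESeq2's Wald test called these 2 (Myc as higher, adjusted p = 0.00880, and Nop60B as lower, adjusted p = 0.0406), at a background of 29.8% of genes called. The median log2 fold change was -0.01 for the 10 genes and 0.02 over all genes tested.

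Myc had 1475 and 1099.6 CPM in pros + Syp knockdown VNCs, against 944 and 902 CPM in pros knockdown VNCs. Both pros + Syp knockdown libraries lay above both pros knockdown libraries. The resulting log2 fold change of 0.48 (SE 0.15, 95% confidence interval 0.09 to 0.87, adjusted p = 0.0781 by edgeR) equals 1.40-fold. Library 1 of the pros + Syp knockdown weighed most on this value. Without it the log2 fold change was 0.25 (adjusted p = 0.205), and without library 2 it was 0.67 (adjusted p = 0.0227), each from a fit of the 5 remaining libraries in which the lone sample is assumed to vary like the others. Some other scalings also changed the call. Myc was called higher with library totals (0.62, adjusted p = 0.0482), with dpn and grh as scaling genes (0.65, adjusted p = 0.0145) and with the 6 NB markers (0.67, adjusted p = 0.0252), all by edgeR. These scalings moved the median of all genes to 0.15, 0.20 and 0.21. Myc stayed uncalled by edgeR with DESeq2 size factors (0.48, adjusted p = 0.0789) and without rRNA and mitochondrial genes (0.47, adjusted p = 0.0810).

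Nop60B was the gene with the lowest value between the tumors. It had 251 and 241 CPM in pros + Syp knockdown VNCs, against 293 and 279 CPM in pros knockdown VNCs, without overlap. Its log2 fold change came to -0.21 (SE 0.07, 95% confidence interval -0.38 to -0.04, adjusted p = 0.0757 by edgeR). Among the other 8 genes the libraries did not overlap for mbm, with 49.7 and 49.6 CPM against 48.7 and 43.5 CPM, and for Ns2, with 100.3 and 107 CPM against 118 and 107 CPM, where the nearest libraries were almost level. Such separation was common, with both libraries higher in 33.7% and both lower in 34.0% of the genes tested.

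For the other 6 genes the libraries overlapped. Fib had 118 and 128 CPM in pros + Syp knockdown VNCs and 133 and 122 CPM in pros knockdown VNCs. Nop56 had 148 and 145 CPM and 159.6 and 130.4 CPM in the same order. The C/D particle protein nop5 had 191 and 208 CPM in pros + Syp knockdown VNCs and 219.7 and 206 CPM in pros knockdown VNCs. The largest difference among these C/D proteins was that of nop5, at -0.093 on the log2 scale. Nopp140 had 202 and 218 CPM in pros + Syp knockdown VNCs and 229 and 202 CPM in pros knockdown VNCs. For Ns1 these levels were 76.7 and 81.6 CPM and 81.8 and 66.4 CPM, and for Ns3 62.5 and 65.5 CPM and 65.8 and 57.7 CPM. The 8 genes other than Myc and Nop60B had log2 fold changes between -0.12 and 0.11, and their 95% confidence intervals lay within -0.32 and 0.40, which allows differences of up to 1.32-fold.

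The direction of these small differences depended on the scaling between libraries. Between the tumors the median of all genes moved to 0.15 with library totals in place of TMM, to 0.20 with dpn and grh as scaling genes and to 0.21 with the 6 NB markers, and the median of the 10 genes moved with it, to 0.12, 0.18 and 0.19. The share of calls that were higher was 46.7% with TMM and 71.8%, 76.7% and 79.3% with these scalings. Against wild type, library totals moved the median of all genes to -0.27 in pros knockdown and to -0.09 in pros + Syp knockdown VNCs, and all 10 genes stayed higher, with medians of 2.23 and 2.59.

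A ratio within a library does not depend on the scaling. Relative to the geometric mean of the 9 nucleolar genes, Myc stood at 12.6 and 9.05 in pros + Syp knockdown VNCs, at 7.34 and 7.90 in pros knockdown VNCs, and at 9.78 and 11.9 in wild type VNCs. On all Myc counts, the pros knockdown libraries were the lowest of the 6, while pros + Syp knockdown and wild type libraries overlapped. This ratio includes the reads shared with CG12535 and CR44999. Less the counts of these 2 genes, 32.4% and 30.3% of the Myc counts remained in wild type VNCs. In pros knockdown VNCs 41.9% and 42.3% remained, and in pros + Syp knockdown VNCs 41.2% and 38.7%. The order of the ratios is therefore given for all counts only. Summed over the 9 nucleolar genes, the level was 1198 and 1244 CPM in pros + Syp knockdown VNCs, 1349 and 1215 CPM in pros knockdown VNCs, and 189 and 190.3 CPM in wild type VNCs. For every 100 CPM of the 6 NB markers, the 9 genes had 62.4 and 70.7 CPM in pros + Syp knockdown VNCs and 55.7 and 53.6 CPM in pros knockdown VNCs, against 1499 and 1631 CPM in wild type VNCs, where NB markers were nearly absent. The markers in this sum did not move together between the tumors, since mira and insc were called lower and ase higher. The nucleolar genes were thus read at a measurable level in VNCs with almost no NB marker RNA.

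Since 61.2% of the exon length of Myc is shared, its counts were also taken less those of CG12535 and CR44999, an alternative chosen after seeing the data. The number of Myc reads that touch neither gene is at least this difference, although its fold change is no bound. It left 607 and 426 CPM in pros + Syp knockdown VNCs, 395 and 382 CPM in pros knockdown VNCs, and 57.9 and 65.6 CPM in wild type VNCs. Between 30.3% and 42.3% of the Myc counts remained. On these counts Myc was again higher in both tumor conditions than in wild type, with log2 fold changes of 3.06 in pros + Syp knockdown (SE 0.20, adjusted p = 2.35e-04) and 2.66 in pros knockdown VNCs (SE 0.09, adjusted p = 7.09e-06). The value between the tumors came to 0.41 (SE 0.17, adjusted p = 0.151 by edgeR), and the difference did not pass the test.

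**Figure D3:**
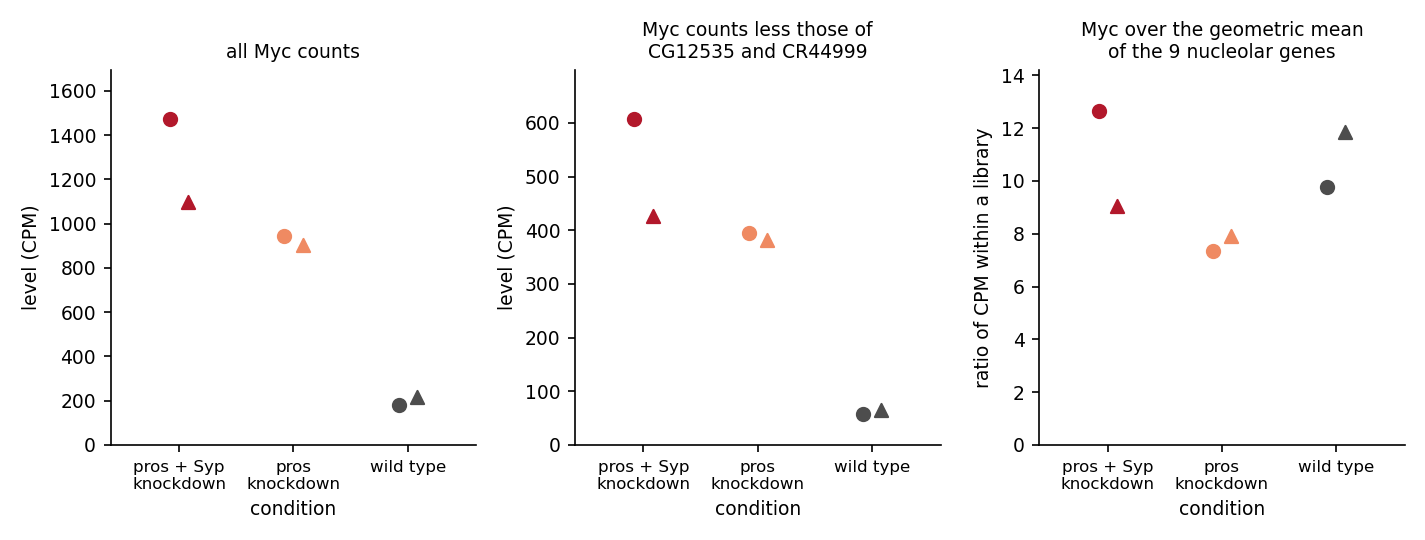
Myc in the 2 libraries (circle, library 1; triangle, library 2) of pros + Syp knockdown, pros knockdown and wild type VNCs: all counts (CPM), counts less those of the overlapping genes CG12535 and CR44999 (CPM), and the ratio to the geometric mean of the 9 nucleolar genes in the same library. Both tumor conditions lie above wild type in the first panels, but the ratio in pros + Syp knockdown VNCs (12.6 and 9.05) overlaps that in wild type VNCs (9.78 and 11.9). The ratio uses all Myc counts, shared reads included.

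To set the genes beside each other, levels were divided by exon length (CPM per kb), with the shared reads of Myc left in. In wild type VNCs Myc had the highest level per kb, 19.5 to 23.6, followed by Ns2 with 16.5 to 18.0 and Nopp140 with 13.0 to 13.2. The next in order were nop5, Ns1, Nop56, Ns3, Fib and Nop60B, between 11.6 and 6.11, and mbm was last with 3.99 to 4.25. No neighbours in this order overlapped. Fib and Nop60B, the rRNA modifying enzymes, thus stood near the bottom in normal VNCs.

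With pros knockdown tumors the order per kb was different, led by nop5 with 114 to 121 CPM per kb. Myc (98.4 to 103) and Fib (92.6 to 101) came next and overlapped, as did Nop60B (81.7 to 86.0) and Nop56 (74.7 to 91.4). Nopp140, Ns2 and Ns1 followed without overlap, while Ns3 (26.5 to 30.2) and mbm (24.8 to 27.7) overlapped at the bottom. The C/D proteins, Nop60B and Nopp140 thus stood above the GTPases with tumors. In pros + Syp knockdown VNCs Myc led with 120 to 161 CPM per kb, followed by nop5 with 105 to 115, Fib with 89.2 to 97.4, Nop56 with 83.0 to 84.9 and Nop60B with 70.8 to 73.6. Nopp140, Ns2, Ns1, Ns3 and mbm came after them, in the order seen in pros knockdown VNCs, and no neighbours overlapped.

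**Figure D4:**
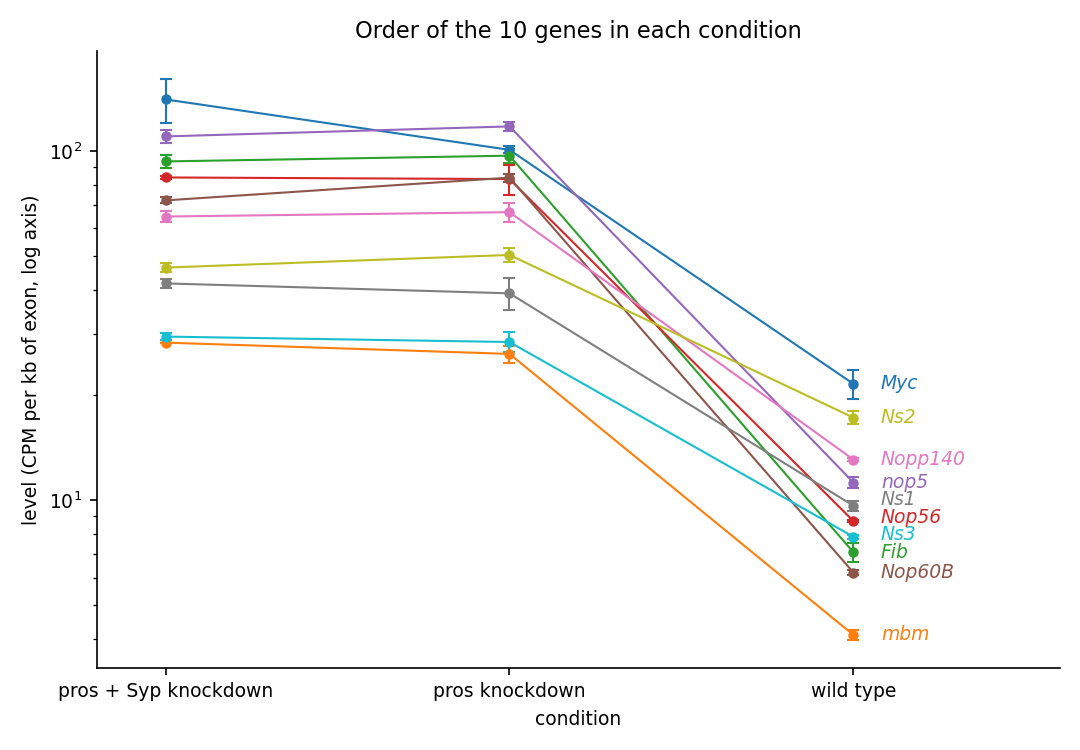
Level per kb of exon (CPM per kb, log axis) of the 10 genes in pros + Syp knockdown, pros knockdown and wild type VNCs; points are means of 2 libraries, bars run from the lower to the higher library, and lines join the points of a gene. Ns2 is the second of 10 in wild type VNCs and the seventh in both tumor conditions, whereas Fib is the eighth and the third.

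Profiles over the 6 libraries were compared by the root mean square (RMS) difference of log2 CPM centred on each gene's mean, among 7454 other genes with a mean of at least 10 CPM. The 5 genes most like Myc were CG13676, CR46006, CG30105, Mes2 and Orc6, at RMS differences of 0.137 to 0.148, and no other gene was under 0.15. CG13676, the closest, had 18.0 and 16.9 CPM in pros + Syp knockdown, 14.8 and 13.6 CPM in pros knockdown and 2.07 and 2.36 CPM in wild type VNCs. The mean profile of the 9 nucleolar genes had closer matches, rig, Aos1, Nup75, Rrp46 and Cse1, at 0.038 to 0.052, and 123 genes were under 0.15. This profile averages 9 genes and that of Myc is 1 gene, so their distances and numbers of matches are not on equal terms. Among the members themselves mbm lay nearest to the mean of the other nucleolar genes (0.073) and Ns2 farthest (0.64), with Myc between them at 0.28. The 6 points share their 3 conditions, and likeness is given as a description.

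Other genes of the pathway were taken from 4 lists: RNA polymerase I (7 genes), snoRNP partners (7), small subunit processing (20) and large subunit processing (23). Of these 57 genes, all measured, 56 were called higher in pros + Syp knockdown VNCs than in wild type, with a median log2 fold change of 2.04, and 56 in pros knockdown VNCs, with a median of 2.15. The 1 gene not called was in both cases Tif-IA, the initiation factor of RNA polymerase I, with 70.7 and 73.9 CPM in pros + Syp knockdown, 80.4 and 77.1 CPM in pros knockdown and 70.6 and 75.6 CPM in wild type VNCs. Between the tumors 0 of the 57 were called higher and 10 lower, with a median of -0.05. Over all genes tested, 10.9% were called higher and 12.4% lower between the tumors. Against wild type the shares were 39.8% higher and 36.7% lower in pros + Syp knockdown VNCs. In pros knockdown VNCs they were 41.9% and 40.7%. The counts of each list below stand beside these same shares.

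In the RNA polymerase I list the highest value against wild type was that of RpI135, the second largest subunit, with log2 fold changes of 2.91 in pros + Syp knockdown and 3.31 in pros knockdown VNCs. It was also the 1 gene of the list called between the tumors, with 94.9 and 96.7 CPM in pros + Syp knockdown VNCs against 131 and 120.2 CPM in pros knockdown VNCs (-0.39, adjusted p = 0.0249 by edgeR). The highest value there was that of l(2)37Cg, at 0.26, which did not pass the test.

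All 7 snoRNP partners were called higher in both tumor conditions, with medians of 2.84 in pros + Syp knockdown and 2.78 in pros knockdown VNCs. The highest was hoip, whose human counterpart starts assembly of the C/D particle on its RNA, with 57.4 and 59.6 CPM in pros + Syp knockdown, 60.7 and 47.2 CPM in pros knockdown and 6.71 and 5.58 CPM in wild type VNCs (3.24 and 3.14). The lowest was CG10055, at 1.20 and 1.30. Between the tumors none was called, with CG10341 the highest at 0.29 and Nufip, in humans an assembly factor of C/D particles, the lowest at -0.15.

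For small subunit processing all 20 genes were called higher in both tumor conditions, with medians of 1.86 in pros + Syp knockdown and 1.96 in pros knockdown VNCs. The highest were U3-55K, a protein of the U3 snoRNP, at 2.50 in pros + Syp knockdown VNCs, and l(2)k09022, at 2.90 in pros knockdown VNCs. CG4866 was the lowest in both, at 1.26 and 1.19. Between the tumors 4 genes were called lower, of which l(2)k09022 had the lowest value (-0.39, adjusted p = 0.0239). RIOK2, a kinase of the late small subunit, had the highest at 0.12 without passing the test, and shares 48.5% of its exon length with an antisense gene.

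The 23 genes of large subunit processing were likewise all called higher, with medians of 2.06 in pros + Syp knockdown and 2.18 in pros knockdown VNCs. The highest in both was CG13185, the fly midasin, at 2.76 and 3.14. The lowest were CG4364, the fly pescadillo, at 1.07 in pros + Syp knockdown VNCs, and Nmd3, the export adaptor of the large subunit, at 1.59 in pros knockdown VNCs. Between the tumors CG4364 had the lowest value, with 301 and 243 CPM in pros + Syp knockdown VNCs against 623 and 602 CPM in pros knockdown VNCs (-1.17, adjusted p = 0.00860 by edgeR). It was among 5 genes of the list called lower, and the highest value was that of CG1785, at 0.15.

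Partners and regulators of Myc (14 genes) were less uniform. In each tumor condition 11 were called higher and 2 lower than in wild type, with medians of 0.68 in pros + Syp knockdown and 0.72 in pros knockdown VNCs. The highest was rept, an ATPase that binds Myc, at 2.59 and 2.48. The lowest was mei-P26, a TRIM-NHL protein that limits growth in the germline, with 516 and 522 CPM in pros + Syp knockdown and 460.3 and 503 CPM in pros knockdown VNCs, against 1231 and 1194 CPM in wild type VNCs (-1.23 and -1.33). Max, the dimer partner of Myc, named after its values were seen, was called higher at 1.23 and 1.08. Mnt, which pairs with Max and opposes Myc, was called lower in both, with 61.9 and 60.7 CPM in pros + Syp knockdown and 41.6 and 46.8 CPM in pros knockdown VNCs, against 72.5 and 72.9 CPM in wild type VNCs. Mnt was also the 1 gene of this list called between the tumors, higher in pros + Syp knockdown VNCs (0.47, adjusted p = 0.0205 by edgeR), while CkIIalpha had the lowest value at -0.10.

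**Figure D5:**
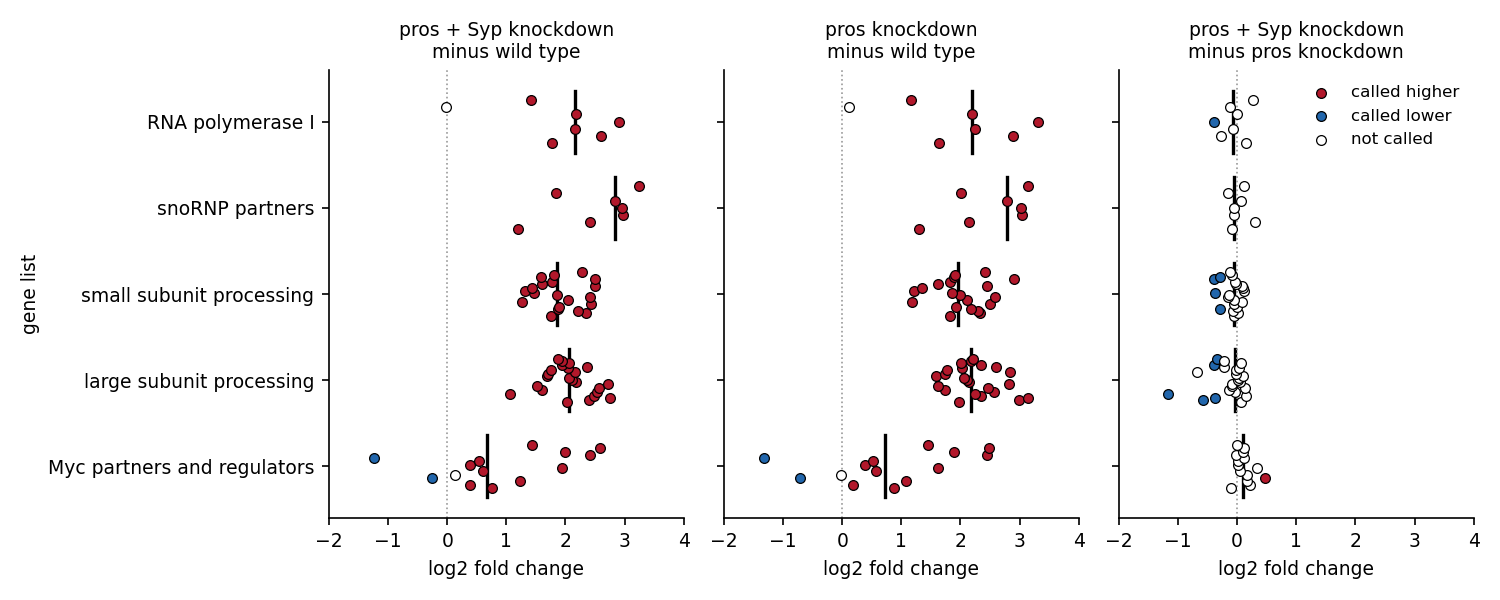
Log2 fold change of each gene in the lists of RNA polymerase I, snoRNP partners, small subunit processing, large subunit processing, and Myc partners and regulators, for pros + Syp knockdown minus wild type, pros knockdown minus wild type and pros + Syp knockdown minus pros knockdown VNCs; bars are list medians, and the spread of points within a list has no meaning. Against wild type the medians of the first 4 lists lie between 1.86 and 2.84, and between the tumors all 5 lie within -0.06 and 0.11.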

How the data were processed

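Total RNA from VNCs was depleted of rRNA and sequenced as stranded, paired reads; the labels add the term polyA RNA. Subread was used by the authors for mapping to dmel6 (Release 6; the submitters' processing notes name dm3), and they deposited raw counts per gene, made with featureCounts 1.5.0 and FlyBase annotation 6.19. Per the file header, a read was given to every gene it overlapped and strand was not used. Sample labels set the groups. Software was edgeR 4.0.16 and DESeq2 1.42.0 for tests, GenomicRanges 1.54.1 for overlaps, R 4.3.3 and matplotlib 3.10.9. Genes were kept by filterByExpr (minimum count 10), scaled by TMM and tested with edgeR's quasi-likelihood test (prior count 2) on the 4 libraries of a comparison, with Benjamini-Hochberg adjustment over all genes tested and a threshold of 0.05, where the methods' 0.001 is an alternative. For RMS differences, 0.5 was added to the CPM. The scripts were tested on simulated data. Summed over all genes kept, replicates differed by far more than counting error (chi-square per degree of freedom of 76.1 to 158). That sum included rRNA genes and used library totals, not TMM. The median gap between replicates was 1.05-fold in wild type and 1.07-fold in each tumor condition.

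The members and lists were chosen with earlier results of these data known. Named were all members, the knockdown targets, the genes with the highest and lowest fold change of each list in each comparison, and the 5 nearest profiles. Tried as alternatives were library totals, size factors from DESeq2, scaling without rRNA and mitochondrial genes or on dpn and grh, 2 other count filters, a fit of all 6 libraries, the Wald test of DESeq2, the replicate block, a threshold of 0.001 and leaving out each library; scaling on 6 NB markers and the reduced Myc counts were added after seeing the data. Single-cell data were not analysed here, and no sequence was used.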

Additional observations from a re-analysis of the deposited data

How the results depend on the processing

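Against wild type, all 121 log2 fold changes of the 10 genes computed under the alternatives for pros + Syp knockdown VNCs and all 121 for pros knockdown VNCs kept their direction and their side of the threshold. The counts of all genes called were 5286 and 7735 at an adjusted p under 0.001, against 10935 and 11700 at 0.05, and stayed within 1.5 times under the other alternatives. Between the tumors 115 of 141 log2 fold changes kept direction and side. At 0.001 none of the genes tested was called there. Of the 10 genes 1, Myc, was called higher with library totals (log2 fold change 0.62, adjusted p = 0.0482), with dpn and grh as scaling genes (0.65, adjusted p = 0.0145), with the 6 NB markers as scaling genes (0.67, adjusted p = 0.0252), with DESeq2's Wald test (0.48, adjusted p = 0.00880) and with the replicate block (0.47, adjusted p = 0.0461). DESeq2 also called 1 gene lower, Nop60B (-0.21, adjusted p = 0.0406).

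Values near 0 changed sign with the scaling. Fib, nop5, Nopp140 and Ns2 stood at 0.079, 0.038, 0.092 and 0.013 with library totals, at 0.14, 0.094, 0.15 and 0.069 with dpn and grh, and at 0.15, 0.11, 0.16 and 0.083 with the 6 NB markers. Leaving out each library in turn gave 1519 to 3734 genes called between the tumors, with the lowest counts without library 1 (1519) and without library 2 (1567) of the pros knockdown, and 0 or 1 of the 10 genes called higher. The ranges were -0.12 to 0.0081 for Fib, -0.13 to 0.15 for Nop56, -0.13 to 0.037 for Nopp140, -0.051 to 0.24 for Ns1 and -0.043 to 0.13 for Ns3. The cause of these shifts was not tested.

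The labels give the same replicate numbers in each condition. Same-numbered libraries did not deviate together in every pair (correlation across genes of 0.33 between the tumors, -0.24 between pros knockdown and wild type and -0.06 between pros + Syp knockdown and wild type), so the numbers were not taken as pairs. With the replicate block 3466 genes were called between the tumors, against 3190 without it.

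With 2 libraries per condition, differences of up to 1.32-fold between the tumors lay within the confidence intervals of the 8 genes other than Myc and Nop60B, and of up to 1.83-fold within that of Myc.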
